A study of Mus musculus with 12 samples.

Results

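The genes described here encode ataxin-1 (Atxn1), its paralogue ataxin-1-like (Atxn1l), the transcriptional repressor Capicua (Cic) and 4 proteins that bind ataxin-1 or act on its amount: the splicing factor RBM17 (Rbm17), the kinase MSK1 (Rps6ka5), 14-3-3 epsilon (Ywhae) and the deubiquitinase USP7 (Usp7). They were chosen by name, with earlier results of these data known, and are 7 of the 56941 genes in the deposited count tables. The RNA came from cerebellar tissue of 12 C57BL/6J mice aged 16 weeks, 3 in each of 4 groups, and both sexes were used. The paper states that each brain was bisected and only 1 side frozen. WT sedentary and WT exercise mice carried the unaltered Atxn1 gene. SCA1 sedentary and SCA1 exercise mice were Atxn1154Q/2Q knock-in animals, in which 1 allele of the mouse's own Atxn1 gene carries a lengthened run of glutamine codons and the other allele has the mouse's 2. The expanded allele is therefore driven by the Atxn1 promoter in every cell that uses the gene, and gene counts do not separate it from the other allele. Exercise mice lived alone with a running wheel for 12 weeks, from week 4 to week 16, while sedentary mice were housed in groups without a wheel, so that running and housing cannot be told apart. According to the paper, the running wheels were taken out of the cages before behavioural tests, and tissue was collected after the last test. The RNA was therefore not sampled during wheel access.

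Spinocerebellar ataxia 1 is caused by a lengthened glutamine tract in ataxin-1, a nuclear protein of neurons, and Purkinje cells of the cerebellum are among the cells most affected. Ataxin-1 and ataxin-1-like each bind Capicua, stabilise it and take part in its repression of target genes. MSK1, a kinase downstream of RAS and MAPK, can phosphorylate ataxin-1 on a serine near its C-terminus, and 14-3-3 proteins bind the phosphorylated site and slow the protein's breakdown. RBM17 binds the same end of the protein. Much of this regulation acts on protein, which RNA counts do not measure.

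Atxn1 (ENSMUSG00000046876) lies on the minus strand at chr13:45703231-46118484 of GRCm39, and 2 of the 8 exons of its canonical transcript hold coding sequence. The places in the coding sequence on which the mouse model and the 14-3-3 interaction turn are shown, read from the GRCm39 reference and therefore not from these mice. The first is the stretch around the CAG pair that starts at codon 199 of 791, where the knock-in allele holds the long tract (exon 7, chr13:45721174-45721419, the pair in capitals). The second is the stretch around the codon of the phosphorylated serine, codon 751 (exon 8, chr13:45710594-45710716, that codon in capitals). Both are printed 5′ to 3′ on the coding strand.
CAG pair of Atxn1: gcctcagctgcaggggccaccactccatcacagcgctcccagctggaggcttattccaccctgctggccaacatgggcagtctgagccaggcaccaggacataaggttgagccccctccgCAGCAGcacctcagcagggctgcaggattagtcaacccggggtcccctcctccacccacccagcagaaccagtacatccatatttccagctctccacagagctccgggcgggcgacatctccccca
phosphorylated serine of Atxn1: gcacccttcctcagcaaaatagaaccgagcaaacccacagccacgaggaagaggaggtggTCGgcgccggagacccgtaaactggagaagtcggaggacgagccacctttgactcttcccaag
Atxn1l (ENSMUSG00000069895, chr8:110435993-110464442, minus strand) has its whole coding sequence of 687 codons in 1 exon. The coding sequences of Atxn1 and Atxn1l shared 0 words of 50 bases, so that no stretch of that length is common to both.

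Libraries held between 20556802 and 32127508 read pairs counted on genes, and each of the 7 genes had between 627 (the lowest Rbm17 count) and 13416 (the highest Ywhae count) in a library. Values are given as CPM, a gene's count relative to the TMM-scaled total of its library, and each difference as a log2FC from edgeR's quasi-likelihood test with Benjamini-Hochberg adjustment over the 20341 genes tested. A gene was called at an adjusted p under 0.05 with an absolute log2FC over 0.5. The libraries of SCA1 sedentary mouse 16 and SCA1 exercise mouse 55 stood apart, with 6.38% and 6.33% of read pairs mapped to several places against 2.08% to 3.46% in the others, and results that rest on them are given with and without them. RNA of 2 samples had a lower integrity score and was fragmented for a shorter time, but which samples these were is not given in the sources used here. By genes of chromosome Y and Xist, WT exercise mouse 201, SCA1 sedentary mouse 194 and SCA1 exercise mice 55 and 122 were female and all 3 WT sedentary mice were male. Exercise mice lived alone, but the labels do not say whether sedentary mice of a group shared a cage. The paper calls the mice littermates, but the labels do not give the litters, so p-values measure the spread between these mice.

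None of the 7 genes was called in any of the 6 comparisons, and none had an unadjusted p under 0.05 in edgeR or in DESeq2 on all 12 libraries. For genotype without exercise (SCA1 sedentary versus WT sedentary) 0 of 7 were called, where 0.0344% of all genes tested were called and 10.1% had an unadjusted p under 0.05. For genotype over both activity groups, 6 mice against 6, 0 of 7 were called, beside 0.118% of all genes called and 9.81% at an unadjusted p under 0.05. For running in WT mice, running in SCA1 mice, genotype among runners and the interaction, 0 of 7 were called and the share of all genes called was 0% in each. At an unadjusted p under 0.05 these 4 comparisons held 4.69%, 2.17%, 2.93% and 3.78% of all genes, in that order. The number called among all genes depended on the setting. For running in WT mice it was 63 with DESeq2 and 150 in edgeR on the WT groups alone. For genotype without exercise it was 201 with DESeq2 and 0 in edgeR on the sedentary groups alone. The median log2FC of the 7 genes was -0.087 for genotype without exercise, beside 0.016 over all genes tested, and -0.044 over both activity groups, beside 0.011.

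The width of the intervals shows what the fit of all 12 libraries could resolve, with 3 mice a group. The fit shares its estimate of each gene's spread over the 4 groups, whose spreads differed. For Cic the SD was 60.4 CPM in SCA1 sedentary and 3.17 CPM in SCA1 exercise mice. All 42 intervals (95%, 7 genes in 6 comparisons) included 0, and 6 of them reached past an absolute log2FC of 0.5. Those 6 belonged to Rps6ka5, Ywhae and Cic, and 3 of them were in the interaction. Over both activity groups, with 6 mice against 6, they reached from -0.34 to 0.30 at the widest, which leaves out a log2FC of 0.5 for each of the 7 genes.

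**Figure D1:**
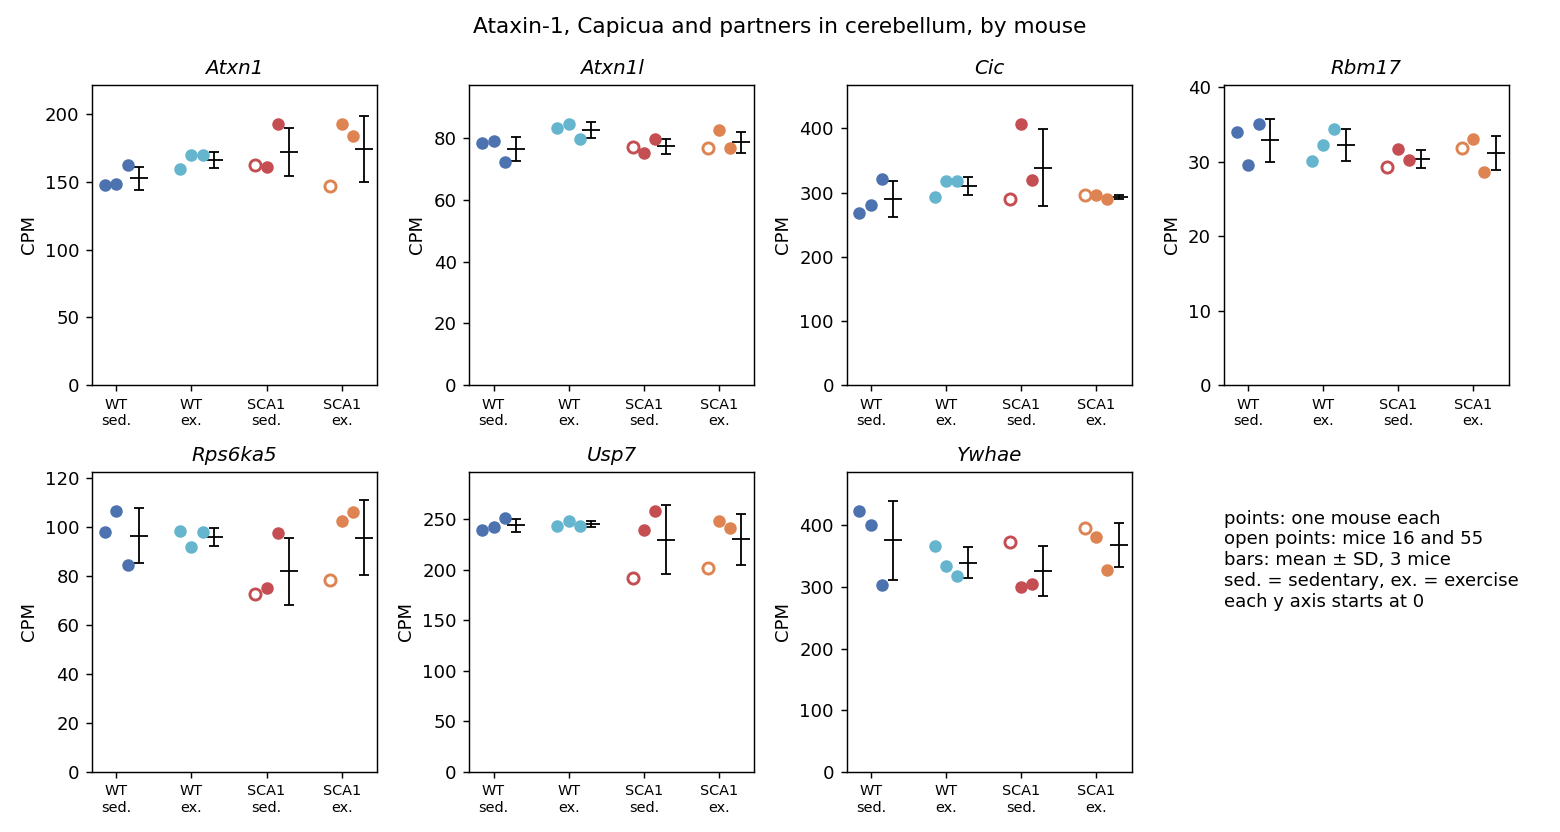
CPM (y axis, from 0) of the 7 genes in every mouse by group (x axis), with the mean and SD of 3 mice as bars and mice 16 and 55 as open points. The groups overlap in each panel, apart from Atxn1l in WT exercise mice (79.7 to 84.6) against WT sedentary mice (72.2 to 79.1).

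Atxn1 RNA was present in all groups, and no difference between them passed the test. In WT sedentary mice Atxn1 stood at 148, 148 and 162 CPM, and in WT exercise mice at 159, 169.7 and 169.8 CPM. In SCA1 sedentary mice it stood at 162.5, 161 and 193 CPM in mice 16, 194 and 195, and in SCA1 exercise mice at 147, 193 and 184 CPM in mice 55, 122 and 198. Mouse 55 was the lowest of all 12, mice 122 and 195 were the highest, and every pair of groups overlapped. The mean for WT mice was 153 ± 8.28 (SD, n = 3) without and 166 ± 6.05 with exercise, and for SCA1 mice 172 ± 17.9 without and 175 ± 24.3 with exercise. Atxn1 had a log2FC of 0.17 (SE 0.11) in SCA1 sedentary against WT sedentary mice, with an adjusted p of 0.636 in edgeR. Over both activity groups the log2FC of Atxn1 was 0.12 (SE 0.080, 95% interval -0.053 to 0.30, edgeR adjusted p = 0.629), and the two-sided exact permutation test within activity groups gave p = 0.16. Between exercise and sedentary mice Atxn1 had a log2FC of 0.12 in WT mice (edgeR adjusted p = 0.958) and 0.020 in SCA1 mice (edgeR adjusted p = 0.999).

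The size of the difference in Atxn1 depended on which mice were in the fit. Without mice 16 and 55 its log2FC over both activity groups was 0.21 (edgeR unadjusted p = 0.00468, adjusted p = 0.153), and for genotype without exercise it was 0.23 (edgeR adjusted p = 0.168). With bands of mouse numbers as a covariate, the value over both activity groups was 0.19 (edgeR unadjusted p = 0.0166, adjusted p = 0.369). The lowest band held mice 16 and 55 alone, so this setting is not independent of leaving them out. Other mice moved it the opposite way: without mouse 195 the log2FC for genotype without exercise was 0.075, and without mouse 122 that among runners was -0.030, against 0.070 with all mice. Under all 19 alternatives the log2FC over both activity groups ran from 0.070 to 0.21 with adjusted p between 0.153 and 0.863, so that the sign was kept in each and no call was made in any.

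Atxn1l, whose product can stand in for ataxin-1 in the Capicua complex, varied least among the 7, with a highest value 1.17 times the lowest. It stood at 78.5, 79.1 and 72.2 CPM in WT sedentary mice and at 83.5, 84.6 and 79.7 CPM in WT exercise mice. In SCA1 sedentary mice it stood at 77.2, 75.1 and 79.9 CPM, and in SCA1 exercise mice at 76.8, 82.7 and 76.8 CPM. WT exercise mice were all above WT sedentary mice, the only case among the 7 genes of groups that did not overlap, and 10.1% of all genes tested were likewise higher without overlap. In either direction the groups did not overlap for 11.4% of all genes tested for genotype without exercise, 21.2% for running in WT mice, 4.50% for running in SCA1 mice and 14.2% for genotype among runners. For 2.01% the genotypes did not overlap within sedentary and within exercise mice, in the same direction in each. The log2FC of Atxn1l was 0.11 (SE 0.079, edgeR adjusted p = 0.958), and the exact permutation p of 0.1 is the smallest that 3 mice against 3 can give. SCA1 and WT mice differed over both activity groups by a log2FC of -0.027 (SE 0.056, 95% interval -0.15 to 0.095, edgeR adjusted p = 0.887).

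Within each library the ratio of Atxn1 to Atxn1l counts does not depend on library size. It was 1.88, 1.87 and 2.25 in WT sedentary mice and 1.91, 2.01 and 2.13 in WT exercise mice. It was 2.11, 2.15 and 2.41 in SCA1 sedentary mice and 1.91, 2.33 and 2.40 in SCA1 exercise mice. The means were 2.00 ± 0.21 and 2.02 ± 0.11 (SD, n = 3) in the WT groups and 2.22 ± 0.17 and 2.21 ± 0.26 in the SCA1 groups, with the values overlapping. The ratio was added after the data had been seen and was not tested.

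Capicua is an HMG-box protein that binds a short motif in its target genes and represses them until MAPK signalling relieves it. Cic (ENSMUSG00000005442, chr7:24967095-24993584, plus strand) stood at 267, 281 and 320.5 CPM in WT sedentary mice and at 293, 317 and 318 CPM in WT exercise mice. In SCA1 sedentary mice it stood at 291, 407 and 319.5 CPM in mice 16, 194 and 195. In SCA1 exercise mice it stood at 296, 295 and 289.97 CPM. Mouse 194 was the highest of all 12 for Cic, and the SCA1 exercise mice lay close together, at a mean of 294 ± 3.17 CPM (SD, n = 3) against 339 ± 60.4 in SCA1 sedentary mice. Cic had a log2FC of 0.23 (SE 0.12, edgeR adjusted p = 0.567) in SCA1 sedentary against WT sedentary mice and of -0.21 (SE 0.12, edgeR adjusted p = 0.999) in SCA1 exercise against SCA1 sedentary mice. Its log2FC over both activity groups was 0.075 (95% interval -0.11 to 0.26, edgeR adjusted p = 0.788).

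The interaction of genotype and exercise for Cic was -0.30 (SE 0.17) with an adjusted p of 1.00 in edgeR. These values depended on mice 16 and 194. Without mice 16 and 55 the log2FC of Cic was 0.35 in SCA1 sedentary against WT sedentary mice (edgeR unadjusted p = 0.00646, adjusted p = 0.104) and the interaction was -0.42 (edgeR unadjusted p = 0.0169, adjusted p = 0.247). With each mouse left out in turn, the log2FC of Cic in SCA1 sedentary against WT sedentary mice ran from 0.062 without mouse 194 to 0.33 without mouse 16, and over both activity groups it was -0.0086 without mouse 194, so that its sign rested on that mouse.

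RBM17, a splicing factor that takes part in the choice of 3′ splice sites, was the gene with the lowest counts of the 7. Rbm17 (ENSMUSG00000037197, chr2:11589270-11608964, minus strand) stood at 34.0, 29.6 and 35.1 CPM in WT sedentary mice and at 30.1, 32.3 and 34.4 CPM in WT exercise mice. It stood at 29.2, 31.7 and 30.2 CPM in SCA1 sedentary mice and at 31.9, 33.0 and 28.6 CPM in SCA1 exercise mice. All groups overlapped, and the lowest and the highest mouse differed 1.23 times. The log2FC of Rbm17 was -0.12 (SE 0.10, edgeR adjusted p = 0.737) in SCA1 sedentary against WT sedentary mice and -0.082 (SE 0.074, 95% interval -0.24 to 0.079, edgeR adjusted p = 0.726) over both activity groups. Exercise moved Rbm17 by a log2FC of -0.029 in WT mice and 0.038 in SCA1 mice, both smaller than their SE of 0.10 and 0.11.

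MSK1 is a kinase for the ataxin-1 serine at codon 751. Rps6ka5 (ENSMUSG00000021180, chr12:100514658-100693242, minus strand) stood at 98.0, 106 and 84.3 CPM in WT sedentary mice and at 98.0, 91.5 and 98.0 CPM in WT exercise mice. It stood at 72.5, 75.1 and 97.6 CPM in SCA1 sedentary mice 16, 194 and 195, and at 78.2, 102 and 106 CPM in SCA1 exercise mice 55, 122 and 198. The 3 lowest values of Rps6ka5 were those of mice 16, 194 and 55, all SCA1, whereas the other SCA1 mice lay within the WT range. Its log2FC was -0.24 (SE 0.14, edgeR adjusted p = 0.609) in SCA1 sedentary against WT sedentary mice and 0.23 (SE 0.14, edgeR adjusted p = 0.999) in SCA1 exercise against SCA1 sedentary mice. Both values depended on single mice. Without mouse 195 they were -0.39 (edgeR unadjusted p = 0.0232, adjusted p = 0.231) and 0.38 (edgeR unadjusted p = 0.0268, adjusted p = 0.584), and without mouse 55 the second was 0.36 (edgeR unadjusted p = 0.0277, adjusted p = 0.737). At the other end of the range over mice left out they were -0.15 and 0.14, and without mice 16 and 55 they were -0.14 and 0.27. Across both activity groups Rps6ka5 was at -0.12 (SE 0.10, 95% interval -0.34 to 0.099, edgeR adjusted p = 0.707). With the bands of mouse numbers as a covariate, the value over both activity groups was 0.014, so its sign depended on that choice.

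Ywhae encodes 14-3-3 epsilon, an abundant adaptor that binds phosphorylated proteins. Ywhae (ENSMUSG00000020849, chr11:75623695-75658554, plus strand) stood at 423, 399.6 and 303 CPM in WT sedentary mice and at 366, 334 and 318 CPM in WT exercise mice. It stood at 373, 299 and 305 CPM in SCA1 sedentary mice and at 395, 380.4 and 328 CPM in SCA1 exercise mice. The WT sedentary group alone spanned most of the range of all 12 mice, from 303 to 423 CPM. Ywhae had a log2FC of -0.20 (SE 0.14, edgeR adjusted p = 0.659) in SCA1 sedentary against WT sedentary mice, 0.17 (SE 0.14, edgeR adjusted p = 0.999) in SCA1 exercise against SCA1 sedentary mice and 0.32 (SE 0.20, edgeR adjusted p = 1.00) in the interaction. The first of these ran from -0.34 without mouse 192 (edgeR unadjusted p = 0.0199, adjusted p = 0.405) to -0.12 with another mouse left out. It was -0.31 without mouse 16 (edgeR unadjusted p = 0.0383, adjusted p = 0.295) and -0.29 without mice 16 and 55 (edgeR unadjusted p = 0.0421, adjusted p = 0.227). The interaction of Ywhae was 0.43 without mouse 16 and 0.45 without mouse 192 (edgeR adjusted p = 0.280 and 0.968). With both activity groups Ywhae was at a log2FC of -0.044 (95% interval -0.26 to 0.17, edgeR adjusted p = 0.896).

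USP7 removes ubiquitin from its substrates and binds ataxin-1. Usp7 (ENSMUSG00000022710, chr16:8506590-8610241, minus strand) stood at 239, 242 and 251 CPM in WT sedentary mice and at 243, 248 and 243 CPM in WT exercise mice. In SCA1 sedentary mice 16, 194 and 195 it stood at 192, 239.6 and 259 CPM, and in SCA1 exercise mice 55, 122 and 198 at 202, 249 and 241 CPM. Mice 16 and 55 were the lowest of all 12, the other 10 lay between 239 and 259 CPM, and those 2 are the libraries with the high share of read pairs mapped to several places. The log2FC of Usp7 was -0.087 (SE 0.12, edgeR adjusted p = 0.838) for genotype without exercise and -0.088 (SE 0.083, 95% interval -0.27 to 0.092, edgeR adjusted p = 0.740) over both activity groups. Without mice 16 and 55 these values were 0.047 and 0.028, so that both signs changed. For genotype without exercise, leaving out mouse 16 alone already gave 0.028. Over both activity groups the sign also changed with bands of mouse numbers as a covariate, at 0.0082 with all 12 mice.

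**Figure D2:**
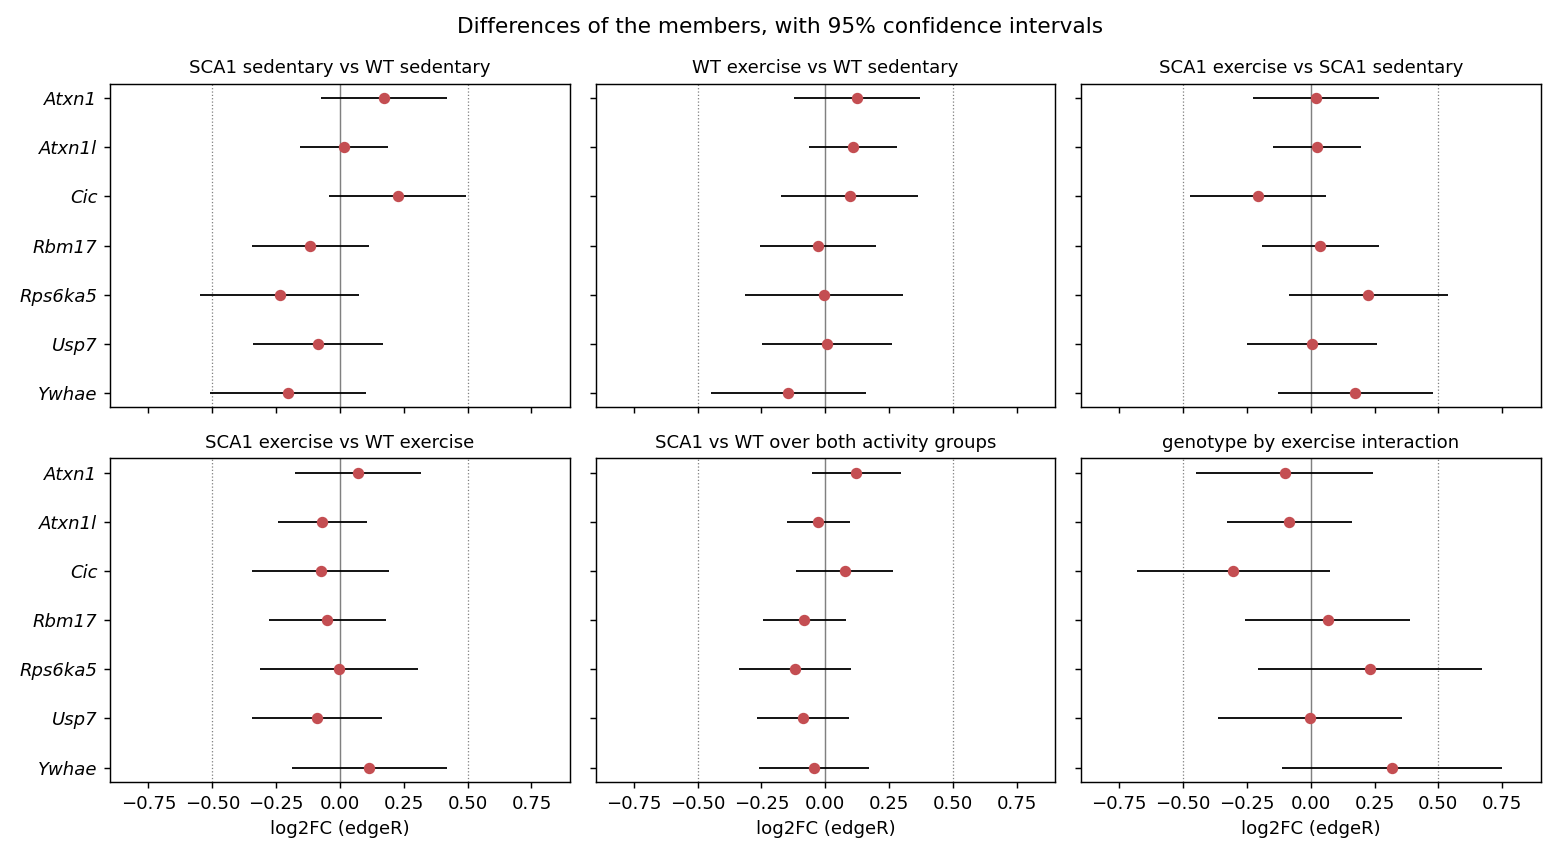
log2FC of each gene from edgeR (x axis) with its 95% interval in the 6 comparisons, 1 panel each, with dotted lines at -0.5 and 0.5. Every interval crosses 0, and the intervals are narrowest over both activity groups (bottom centre), where none reaches 0.5 in either direction.

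Comparing the 7 genes with each other needs a scale per length. Per kilobase of all annotated exons of a gene, mean RPKM over the 12 mice was 73.4 ± 8.91 (SD) for Ywhae, 29.8 ± 3.42 for Cic, 24.3 ± 2.04 for Usp7 and 11.5 ± 1.12 for Atxn1. It was 9.0 ± 0.41 for Atxn1l, 5.68 ± 0.39 for Rbm17 and 5.23 ± 0.68 for Rps6ka5. In this order the mice's values of Cic and Usp7 overlapped, as did those of Rbm17 and Rps6ka5, and all other neighbours were apart. Per kilobase of the canonical transcript the order of mean RPKM was Ywhae 88.4, Usp7 52.1, Cic 37.3, Rps6ka5 16.1, Atxn1 15.7, Rbm17 14.4 and Atxn1l 10.5. Ywhae was thus the highest on both lengths and Atxn1 above Atxn1l on both. The order of Cic and Usp7, that of Atxn1l and Rbm17, and the place of Rps6ka5 among the lower genes depended on the length used. The union of exons of Rps6ka5 was 17645 bases against 5744 in the canonical transcript, the widest gap of the 7. Atxn1, Rps6ka5 and Usp7 overlap other annotated genes on the same strand, 3, 3 and 1 of them, and read pairs shared with those could not be counted for either.

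Next it was asked whether the 7 genes varied together from mouse to mouse. Of the 21 pairs, 1 passed an adjusted p of 0.05 over the 12 libraries. Cic and Ywhae went in opposite directions, with Pearson's r of -0.767 (permutation p = 0.00045, adjusted p = 0.00945) and Spearman's rho of -0.832 (permutation p = 0.00139, adjusted p = 0.0292). Without the 2 mice farthest from the median of Cic, r was -0.824, and without mice 16 and 55 it was -0.771. After the group means were taken out, r was -0.694 with an adjusted permutation p of 0.254, and none of the 21 pairs passed. CPM values are shares of a library, and the part of that scaling in the relation was not tested.

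Over the 12 libraries no other pair passed an adjusted permutation p of 0.05, but some relations were stronger in other settings. Atxn1 and Usp7 gave r = 0.438 (permutation adjusted p = 0.482) over the 12 libraries and 0.607 without mice 16 and 55. Within groups r of Atxn1 and Usp7 was 0.778 (permutation adjusted p = 0.254). Rps6ka5 and Usp7 gave r = 0.667 (permutation p = 0.0209, adjusted p = 0.219) over the 12 libraries but 0.0030 without mice 16 and 55, so that the relation rested on those mice. Cic and Rps6ka5 gave r = -0.472 (permutation adjusted p = 0.482) over the 12 libraries and -0.856 without mice 16 and 55 (unadjusted permutation p = 0.00342). Without those mice, 2 of the 21 pairs passed an adjusted permutation p of 0.05. Atxn1 and Atxn1l gave r = 0.272, and Atxn1 and Cic gave r = 0.183, both with adjusted permutation p over 0.05 (0.663 and 0.746).

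**Figure D3:**
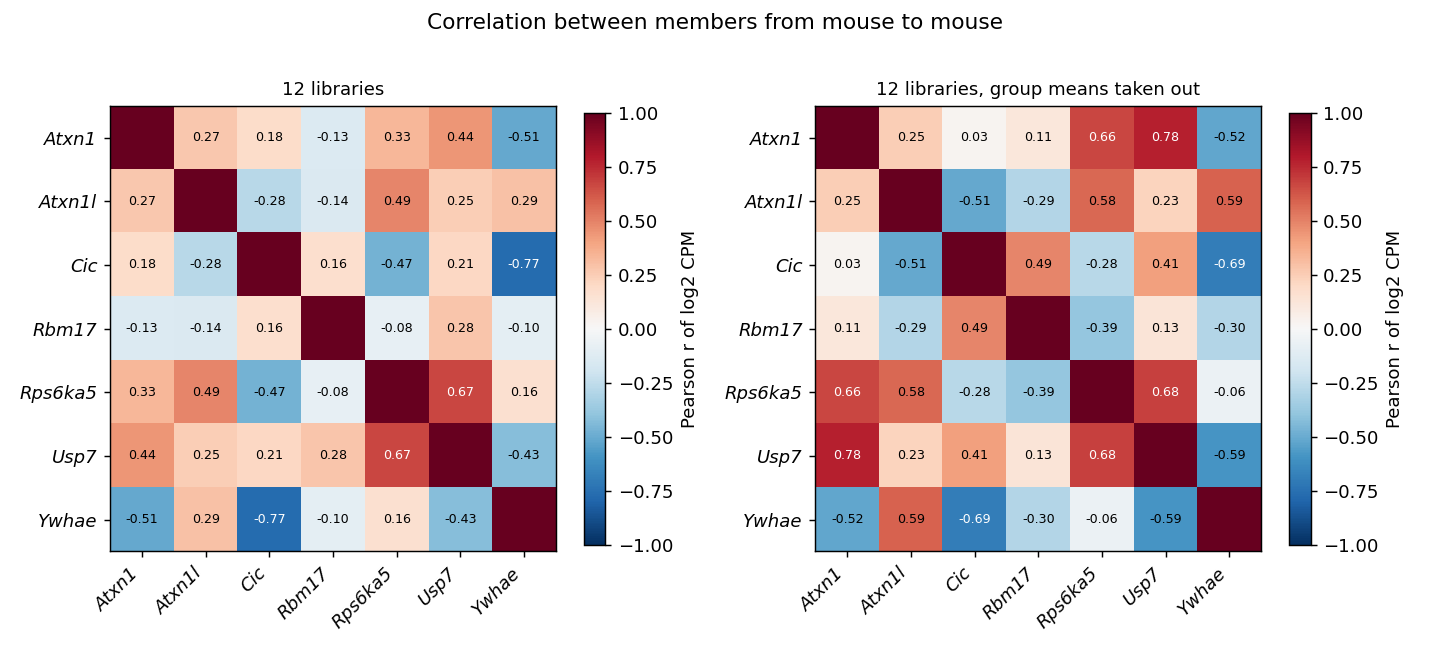
Pearson's r of log2 CPM between each pair of the 7 genes over 12 libraries (left) and after the group means were taken out (right), with colour from -1 to 1. Cic and Ywhae stand out on the left with r = -0.767, and are at -0.694 on the right.

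Of 21 relations between a measure of the libraries and 1 of the 7 genes, 2 passed an adjusted permutation p of 0.05, and both were of Usp7. Read pairs that fell on no gene made up 39.3% to 58.7% of a library, with mice 16 and 55 the lowest at 39.3% and 44.1%. Usp7 rose with this share, with r = 0.867 (permutation p = 0.00019, adjusted p = 0.00399 over 21 relations) and rho = 0.706 (permutation adjusted p = 0.0896). Without mice 16 and 55, which are also the 2 farthest from the median, r was 0.615, and within groups it was 0.937 with an adjusted permutation p of 0.127. Atxn1 had r = 0.615 with the same share (permutation adjusted p = 0.167) and 0.720 without mice 16 and 55, and Rps6ka5 had r = 0.574 (permutation adjusted p = 0.196) and 0.046 without them. The second relation that passed was with the share mapped to several places, which split the libraries into mice 16 and 55 and the other 10, so no r over all 12 is given. Over the other 10 it was -0.689 for Atxn1, -0.374 for Usp7 and -0.220 for Rps6ka5. These relations were added after the data had been seen, and their part in the differences between groups was not tested.

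**Figure D4:**
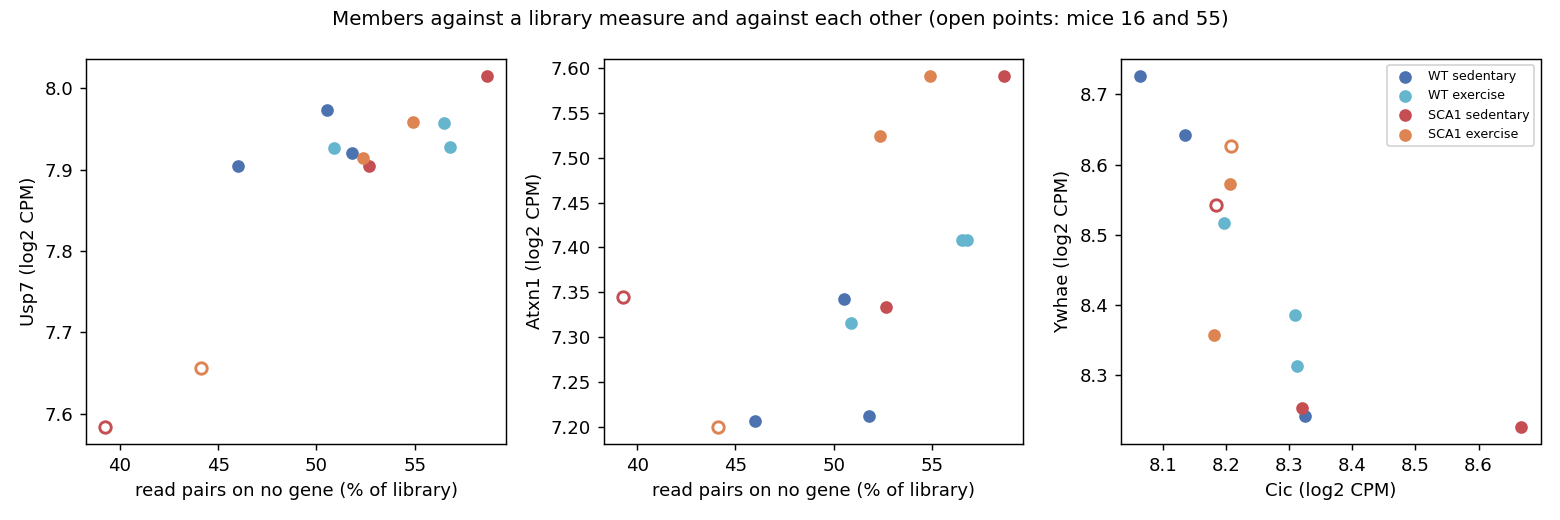
log2 CPM of Usp7 (left) and Atxn1 (centre) against the percent of read pairs on no gene, and of Ywhae against Cic (right), 1 point a mouse, coloured by group, with mice 16 and 55 open. Usp7 is lowest in mice 16 and 55, which also have the lowest shares on no gene (39.3% and 44.1%), and Ywhae is lower where Cic is higher.

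The genes most like each of the 7 over the 12 libraries were found among 11242 genes with an average log2 CPM of at least 3, as a description and with no test. Atxn1 was most like Nyap2 (r = 0.941) and Gm37551 (r = 0.935), and Atxn1l most like Zeb1 (r = 0.917) and Lrp6 (r = 0.906). Cic was like Tnrc18 (r = 0.979), and Ywhae most like Rad23b (r = 0.981) and Ttc1 (r = 0.959). Rps6ka5 was most like Srsf1 (r = 0.973) and Marchf7 (r = 0.968), and Usp7 most like Wdr33 (r = 0.989) and Pogz (r = 0.986). The genes differed in how common such likeness was: 11.4% of all genes searched had r over 0.8 with Usp7 and 7.33% with Rps6ka5, against 0.454% with Atxn1 and 0.400% with Atxn1l. Rbm17 had no gene over 0.8, and its closest was Zfp787 at r = 0.774.

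The wider pathway was followed in 8 lists with 84 genes in all, of which none was called in edgeR in any of the 6 comparisons. Genes repressed by Capicua come first, since they report on its output. Of 14 such genes, 2 were higher and 1 was lower at an unadjusted p under 0.05 in SCA1 sedentary against WT sedentary mice, where 5.55% and 4.55% of all genes tested were. The median log2FC of these 14 was 0.096 in SCA1 sedentary against WT sedentary mice and 0.12 over both activity groups, beside 0.016 and 0.011 over all genes.

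Dusp5, which encodes a nuclear phosphatase that switches off ERK, had the lowest p of the Capicua targets. It stood at 75.5, 72.7 and 81.0 CPM in WT sedentary mice and at 90.6, 83.3 and 81.1 CPM in WT exercise mice. It stood at 38.7, 63.2 and 31.5 CPM in SCA1 sedentary mice and at 65.4, 46.9 and 40.4 CPM in SCA1 exercise mice. All 6 SCA1 mice were below all 6 WT mice. By a looser rule, SCA1 mice below WT mice without overlap within each activity group, 1.27% of all genes tested were lower. Dusp5 had a log2FC of -0.76 (SE 0.16, 95% interval -1.10 to -0.41) over both activity groups, with an edgeR adjusted p of 0.109 and an exact permutation p of 0.005, the smallest this design allows. It was not called in edgeR, but it passed with DESeq2 on all libraries (adjusted p = 0.00189), with every gene of at least 1 count in edgeR (adjusted p = 0.00911), and in edgeR without mice 16 and 55 (adjusted p = 0.0105). Leaving out mouse 55 alone or mouse 194 alone also gave a call, with edgeR adjusted p of 0.0397 and 0.0210. Leaving out any other single mouse gave none, with edgeR adjusted p from 0.0809 (mouse 195) to 0.315 (mouse 121). Nor was it called in edgeR with RLE size factors (adjusted p = 0.119) or unstranded counts (0.0930). The same held with bands of mouse numbers (0.0550) or chromosome Y expression (0.0556) as covariates. The direction, lower in SCA1, is opposite to that of the list's median.

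In the 14-3-3 family, whose 6 other genes were listed beside Ywhae, 0 were higher and 2 were lower at an unadjusted p under 0.05 in SCA1 sedentary against WT sedentary mice, with a median log2FC of 0.030. Among all genes tested 5.55% were higher and 4.55% lower by that measure, with a median log2FC of 0.016. Ywhah, which encodes 14-3-3 eta, stood at 540.4, 522 and 449.7 CPM in WT sedentary mice and at 368, 355 and 321 CPM in SCA1 sedentary mice. In WT exercise mice it stood at 509.9, 463 and 438 CPM, and in SCA1 exercise mice at 471, 395 and 359 CPM. The sedentary groups did not overlap for Ywhah, whereas mouse 55 lay within the WT exercise range, and 5.76% of all genes tested were lower without overlap between the sedentary groups. Its log2FC was -0.53 (SE 0.12, edgeR adjusted p = 0.177) in SCA1 sedentary against WT sedentary mice and -0.37 (SE 0.087, edgeR adjusted p = 0.150) over both activity groups. The former passed with DESeq2 on all libraries (adjusted p = 0.0124) and in edgeR without mice 16 and 55 (adjusted p = 0.0294). Under the other alternatives it was not called. There the edgeR adjusted p ran from 0.0527 with bands of mouse numbers to 0.638 with the compared groups alone.

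Among 13 other proteins that bind ataxin-1, 12 were tested and Gfi1 did not pass the filter on low counts. In SCA1 sedentary against WT sedentary mice 1 of the 12 was higher and 2 were lower at an unadjusted p under 0.05, with a median log2FC of -0.067. The shares over all genes tested were 5.55% and 4.55%, with a median log2FC of 0.016. The lowest p of that list over both activity groups was that of Sp1, a transcription factor, with a log2FC of -0.19 (SE 0.073, edgeR adjusted p = 0.444).

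The remaining lists held no gene that was called under any alternative. In SCA1 sedentary against WT sedentary mice 2 of 15 kinases of the RAS, MAPK and MSK path were higher at an unadjusted p under 0.05 and 0 were lower, and in each of the other 4 lists 0 passed in either direction. Over all genes tested the shares were 5.55% higher and 4.55% lower. The median log2FC was -0.023 for the kinases, 0.10 for protein kinase A and protein phosphatase 2A, 0.048 for corepressors of Capicua, -0.023 for splicing partners of Rbm17 and 0.023 for partners of Usp7, beside 0.016 over all genes tested. Of the kinases, Rps6ka4, which encodes MSK2, had the lowest p in SCA1 sedentary against WT sedentary mice (log2FC 0.36, SE 0.16, edgeR adjusted p = 0.477), and mouse 16 was its highest at 31.8 CPM. Rps6ka2 had the lowest p over both activity groups (log2FC 0.28, SE 0.12, edgeR adjusted p = 0.492). Of 11 genes of protein kinase A and protein phosphatase 2A, the lowest p belonged to Ppp2ca in the first comparison (log2FC -0.21, edgeR adjusted p = 0.581) and to Akt1, the kinase listed with them, in the second (log2FC 0.22, edgeR adjusted p = 0.524). Of 7 corepressors that Capicua works with, they belonged to Sin3b (log2FC 0.20, edgeR adjusted p = 0.548) and Sin3a (log2FC -0.15, edgeR adjusted p = 0.496). Of 8 splicing partners of Rbm17 it was Sf3b1 in both (log2FC -0.22 and -0.15, edgeR adjusted p = 0.596 and 0.612). Of 10 substrates and ubiquitin partners of Usp7 it was Usp15 in both (log2FC -0.22 and -0.18, edgeR adjusted p = 0.602 and 0.558).

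Markers of cerebellar cell types were set beside these values, since in whole tissue fewer cells of a type and less RNA per cell cannot be told apart. The defining markers of Purkinje and granule cells were present in every group, as the tissue label says. The summed CPM of 9 Purkinje cell markers was 7321 to 8202 and 7649 to 8159 in sedentary and running WT mice, and 4398 to 5957 and 5919.6 to 7253 in sedentary and running SCA1 mice. For genotype without exercise all 9 were lower at an unadjusted p under 0.05, and 2 of 9 were called. Among all genes tested in this comparison 4.55% were lower by that measure and 0.0344% were called. With running in SCA1 mice 4 of the 9 were higher at an unadjusted p under 0.05 in edgeR, and 0 were called. In either direction 2.17% of all genes tested passed that unadjusted p. The summed CPM of 7 granule cell markers was 5480.2 to 5580.1 and 5259.7 to 5455 in sedentary and running WT mice, and 2778 to 5104 and 3586 to 5180.3 in sedentary and running SCA1 mice. Without exercise 6 of the 7 granule cell markers were lower in SCA1 mice at an unadjusted p under 0.05 in edgeR (median log2FC -0.49) and 0 were called. Of 6 markers of Bergmann glia and astrocytes 3 were lower by the same measure (median log2FC -0.36) and 0 were called, and their sums were 1166 to 1399 in SCA1 and 1384 to 1651 in WT sedentary mice, a narrow overlap. The sum of 6 choroid plexus markers was 19.0 to 419 in WT sedentary and 828 to 1926 in WT exercise mice, and 26.8 to 1175 and 535 to 1609 in the SCA1 groups. Of these 6, 3 were higher in SCA1 sedentary than WT sedentary mice at an unadjusted p under 0.05 in edgeR, beside 5.55% of all genes tested. By that measure 5 of the 6 were higher in WT exercise than WT sedentary mice, and 0 in SCA1 exercise than SCA1 sedentary mice. In either direction 4.69% and 2.17% of all genes tested passed in those comparisons. The sums of the markers of oligodendrocytes, of microglia and of endothelium overlapped between the sedentary groups of the 2 genotypes, and none of those markers had an unadjusted p under 0.05 in edgeR there. The oligodendrocyte sum was 2715 to 2860.3 in WT exercise mice, all below the 3261 to 4227 of WT sedentary mice, and 2511 to 7008 in SCA1 sedentary mice. No r of the 7 genes with the mean log2 CPM of the Purkinje cell markers passed its permutation test, with r between -0.466 (Atxn1, adjusted p = 0.277) and 0.485 (Rps6ka5, adjusted p = 0.277). Without mice 16 and 55, r was -0.713 for Atxn1 over the other 10 libraries. The part of these cell types in the values of the 7 genes was not tested.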

How the data were processed

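The authors depleted ribosomal RNA from cerebellar RNA of 12 mice, prepared directional libraries, checked the reads with FastQC, trimmed those with high adapter content with fastp 0.24.0 and aligned them to GRCm39 with STAR 2.7.10a. What they deposited are STAR's raw counts for each gene, unstranded and by strand, not normalized. The reverse-strand counts were used, since the forward strand held 5.54% to 6.01% of counts on both strands. Positions and lengths are those of GENCODE M39, which matched 56323 of 56941 genes by Ensembl ID.

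In R 4.3.3, edgeR 4.0.16 (filterByExpr, TMM, glmQLFit and glmQLFTest) was fitted to all 12 libraries with the 4 groups, which left 20341 genes. CPM was computed from the deposited counts with TMM, and its log2 with 2 added as prior count. Exact permutation tests were two-sided, over mice for 3 against 3 and within activity groups for 6 against 6. Correlations used 100000 permutations. Alternatives were DESeq2 1.42.0, the compared groups alone, RLE size factors, genes of at least 1 count, unstranded counts, bands of mouse numbers (under 100, 100 to 150, over 150) or chromosome Y expression as covariates, the fit without mice 16 and 55, without each mouse in turn, and no limit on the log2FC. The band under 100 held mice 16 and 55 alone, both SCA1.

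The genes and lists were chosen with earlier results of these data known. All 7 genes were named, and from each pathway list those called or else the gene with the lowest p in SCA1 sedentary against WT sedentary mice and over both activity groups. Some genes of these groups, or that these rules would name, are not reported here. Relations to library measures, the count ratio, the second length and the alternatives for pathway genes were added after the data had been seen. Intervals of edgeR cover the spread between mice, and protein, splicing and alleles were not analysed here.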

Additional observations from a re-analysis of the deposited data

How the results depend on the processing

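No paired analysis was possible because the groups compared share no mouse numbers. None of the 7 genes was called under any of the 124 combinations of alternative and comparison, and of their log2FC values under the alternatives 762 kept their sign and 64 did not. Without mice 16 and 55, Usp7 was at 0.047 (SCA1 sedentary against WT sedentary), -0.027 (SCA1 exercise against SCA1 sedentary), 0.0090 (SCA1 exercise against WT exercise) and 0.028 (over both activity groups), Rps6ka5 at 0.13 (SCA1 exercise against WT exercise) and Rbm17 at -0.0087 (SCA1 exercise against SCA1 sedentary). With bands of mouse numbers, Usp7 was at -0.0028 (running in WT mice), 0.018 (SCA1 exercise against WT exercise), 0.0082 (over both) and 0.019 (interaction), Rps6ka5 at 0.036, 0.086 and 0.014 in the first 3 of these, and Atxn1l at -0.0032 (SCA1 exercise against SCA1 sedentary) and 0.0038 (over both). With chromosome Y, Rps6ka5 was at 0.035 (running in WT mice) and 0.034 (SCA1 exercise against WT exercise), and Rbm17 at -0.012 (SCA1 exercise against SCA1 sedentary). With unstranded counts, Usp7 was at -0.022 (running in WT mice) and 0.022 (interaction) and Rps6ka5 at 0.019 (SCA1 exercise against WT exercise). With genes of at least 1 count, Usp7 was at -0.0013 and 0.0069 in those 2 comparisons. With the compared groups alone, Rps6ka5 was at 0.0037 (running in WT mice). In SCA1 exercise against SCA1 sedentary mice, Usp7 was at -0.0030 with DESeq2 and -0.0042 with RLE size factors. With each mouse left out, the results that changed sign ran as follows. In SCA1 sedentary against WT sedentary mice Usp7 ran from -0.19 to 0.028 and Atxn1l from -0.032 to 0.049. In WT exercise against WT sedentary mice Rps6ka5 ran from -0.095 to 0.087, Usp7 from -0.0089 to 0.024 and Rbm17 from -0.085 to 0.024. In SCA1 exercise against SCA1 sedentary mice Atxn1 ran from -0.077 to 0.14, Usp7 from -0.11 to 0.10, Atxn1l from -0.032 to 0.056 and Rbm17 from -0.028 to 0.092. In SCA1 exercise against WT exercise mice Rps6ka5 ran from -0.089 to 0.13, Usp7 from -0.17 to 0.0090, Atxn1 from -0.030 to 0.19 and Rbm17 from -0.12 to 0.0020. Over both activity groups Cic ran from -0.0086 to 0.12, and in the interaction Atxn1 ran from -0.20 to 0.013, Usp7 from -0.12 to 0.091 and Rbm17 from -0.0040 to 0.12. The cause of these changes of sign was not tested. Of the 21 correlated pairs, 2 passed in place of 1 without mice 16 and 55. The mean CPM of Cic in SCA1 exercise mice was 298 with unstranded counts. Genes called among all genes tested, 7 in SCA1 sedentary against WT sedentary mice, 24 over both activity groups and 0 elsewhere, depended more on the setting. In SCA1 sedentary against WT sedentary mice there were 201 with DESeq2, 0 with those groups alone, 76 with genes of at least 1 count, 55 with bands of mouse numbers, 1 with chromosome Y and 205 without mice 16 and 55. In WT exercise against WT sedentary mice there were 63, 150, 45, 33, 0 and 64 in the same order. Over both activity groups there were 179 with DESeq2, 125 with genes of at least 1 count, 13 with unstranded counts, 84 with bands, 15 with chromosome Y and 142 without mice 16 and 55. In SCA1 exercise against WT exercise mice there were 3 with DESeq2, 3 with bands and 37 without mice 16 and 55. DESeq2 called 1 in SCA1 exercise against SCA1 sedentary mice and 2 in the interaction. With each mouse left out, the counts ran from 0 to 42, 0 to 19, 0 to 5 and 0 to 63 for genotype without exercise, running in WT mice, genotype among runners and genotype over both activity groups.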
